A study of Mus musculus with 27 samples.

Results

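The epidermal growth factor (EGF) receptor system was examined as 10 genes across 7 groups of mouse gastric organoids. They are the ligand genes Ereg, Areg, Epgn, Btc, Hbegf, Tgfa and Egf and the receptor genes Egfr, Erbb2 and Erbb3. They were taken by symbol from the 56691 genes of the deposited count table, and all 10 were found in it. Each group held 3 RNA-seq libraries, 21 in all. Gpx4 knockout organoids at passages 5, 10 and 15 came from Gpx4 F/F;Mist1Cre/ERT2;RFPLSL mice. Gpx4 encodes the selenoenzyme that reduces lipid hydroperoxides in membranes. Organoids of genotype WT labelled Mist1+, sampled at the same passages and called wild type below, came from Mist1Cre/ERT2;RFPLSL mice. Organoids labelled Mist1-, also of genotype WT, were sampled at passage 5. Knockout and wild-type organoids thus share the Mist1-driven, tamoxifen-inducible Cre and the RFP reporter. Mist1 is the product of Bhlha15, a gene active in chief cells and other cells that secrete proteins. Per the labels, RFP+ cells of adult mouse stomach corpus were sorted and grown in Matrigel in proliferating medium. That protocol is given for all samples alike, so the alleles and the gate behind the Mist1- organoids are not stated, nor is the time of Cre induction. Nothing in the labels says that libraries of one group were grown apart, and p-values then cover library-to-library spread alone.

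The EGF receptor is a receptor tyrosine kinase at the surface of epithelial cells. Its ligands are made as membrane-bound precursors that ADAM proteases release, and a bound receptor pairs with itself or with ERBB2 or ERBB3 and signals through the RAS-ERK and PI3K pathways. ERBB2 binds no ligand by itself, and ERBB3 has little kinase activity and binds neuregulins. In the stomach, TGF-alpha and amphiregulin are known from studies of surface mucous cells and of acid-secreting glands, and EGF is a standard additive of gastric organoid media. The content of the proliferating medium is not given in the sources used here.

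The libraries held 13805585 to 19608956 counts in genes. Gpx4 had 101, 98.8 and 98.1 counts per 1000000 (CPM, scaled by TMM factors) in passage 5 knockout libraries, against 132, 123 and 134 in passage 5 wild-type libraries. It was lower in the knockout by 0.38 on the log2 scale at passage 5 (log2 fold change -0.38 ± 0.04, SE) and by 0.30 at passage 10 (-0.30 ± 0.04), and at passage 15 the difference of -0.73 ± 0.22 had an adjusted p of 0.0559 (edgeR). Counts cover the whole gene, and the deleted exons are not given in the labels, so this is a partial check. Bhlha15 was lower in Mist1+ organoids, with 5.02, 6.20 and 5.27 CPM, than in Mist1- organoids, with 12.8, 8.60 and 9.75 CPM, at passage 5. Since the gate behind the Mist1- organoids is not stated, these levels in passaged organoids do not test the Mist1 labels. The 3 wild-type passage 15 libraries differed from one another far more than those of any other group, with a coefficient of variation between libraries of 21.0%, against 1.89% to 3.09%. Epithelial keratins, Epcam and Cdh1 summed to 5495 to 10602 CPM in every library, while fibroblast markers summed to at most 2.43 and endothelial markers to at most 1.95 CPM. The chief cell genes Pga5 and Lipf were at 0 in every group. The 5 chief cell markers found, Bhlha15 among them, still summed to 10.0 to 38.2 CPM per library. Of the immune list, Cd14 gave nearly all counts, and Ptprc, the common leukocyte marker, had at most 1.15 CPM.

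Epgn, Ereg, Areg and Btc lie side by side on chromosome 5 in GENCODE M21 (GRCm38), within 376 kb and with no other protein-coding gene between them. Epgn (ENSMUSG00000035020) spans 91027464 to 91035215, Ereg (ENSMUSG00000029377) 91074622 to 91093646 and Areg (ENSMUSG00000029378) 91139599 to 91148432, all on the plus strand. Btc (ENSMUSG00000082361) spans 91357261 to 91402994 on the minus strand. Among the other ligand genes, Tgfa (ENSMUSG00000029999) lies on chromosome 6 at 86195223 to 86275719 and Egf (ENSMUSG00000028017) lies on chromosome 3 at 129677565 to 129755316. Egfr (ENSMUSG00000020122) and Erbb2 (ENSMUSG00000062312) are on chromosome 11, at 16752203 to 16918158 and 98412470 to 98437716. Erbb3 (ENSMUSG00000018166) is on chromosome 10 at 128567523 to 128589652.

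Promoter sequences from RefSeq (GRCm38.p6, 250 bases before the start to 50 after it) are shown for Areg, Btc and Epgn, the 3 of these 4 neighbours with an entry in the table. Areg and Btc carry much of the results below, and Epgn stayed near 0. Capitals mark matches, on either strand, to TGACGTCA (the cAMP response element), TGANTCA (the AP-1 site), TATAAA (the TATA box) or GGGCGG (the GC box, CCGCCC on the other strand).
Areg promoter, chr5:91139349-91139648, plus strand: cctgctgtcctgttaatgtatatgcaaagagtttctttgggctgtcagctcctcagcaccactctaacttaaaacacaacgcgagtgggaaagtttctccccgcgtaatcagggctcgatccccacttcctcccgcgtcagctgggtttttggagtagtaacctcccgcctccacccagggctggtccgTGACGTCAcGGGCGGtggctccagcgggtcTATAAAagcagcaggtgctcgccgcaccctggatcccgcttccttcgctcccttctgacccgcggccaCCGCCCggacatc
Btc promoter, chr5:91402945-91403244, minus strand: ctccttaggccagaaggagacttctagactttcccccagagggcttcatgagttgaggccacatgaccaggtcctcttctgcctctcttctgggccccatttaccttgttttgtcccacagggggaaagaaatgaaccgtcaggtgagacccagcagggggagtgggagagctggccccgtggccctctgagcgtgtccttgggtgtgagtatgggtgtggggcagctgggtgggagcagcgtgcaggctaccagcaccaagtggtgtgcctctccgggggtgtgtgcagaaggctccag
Epgn promoter, chr5:91027267-91027566, plus strand: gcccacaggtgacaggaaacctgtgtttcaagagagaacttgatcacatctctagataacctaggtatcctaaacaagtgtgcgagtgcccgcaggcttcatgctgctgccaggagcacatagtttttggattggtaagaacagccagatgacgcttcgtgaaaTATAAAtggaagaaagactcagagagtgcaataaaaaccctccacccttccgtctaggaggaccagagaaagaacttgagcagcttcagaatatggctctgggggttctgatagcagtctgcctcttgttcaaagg
The Areg promoter held a cAMP response element whose first base lay 61 bases before the start, a TATA box 31 bases before it, and 2 GC boxes, 1 on each strand and none overlapping another motif. It held 21 CG dinucleotides, against 5 in each of the Btc and Epgn promoters, and 59.3% of its bases were G or C, against 60.3% for Btc and 47.3% for Epgn. The Epgn promoter held a TATA box 86 bases before the start and no other match, and the Btc promoter held none of the 4 motifs. Of all 32851 promoters of that length in the table, 1.79% held the cAMP response element, 7.81% the AP-1 site, 13.6% the TATA box and 35.7% the GC box. A match describes letters only, and 7 of the 10 genes had a promoter in the table.

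On a scale that divides by transcript length, the deposited fragments per kilobase of exon per 1000000 mapped (FPKM), the 10 genes fell into 3 ranges. Areg, Hbegf, Erbb3, Erbb2, Tgfa, Egfr and Btc had group means of 5.41 FPKM or more in every group. The highest of these was Areg in wild-type passage 15 libraries at 90.5 ± 7.71 FPKM (SD, n = 3), and the lowest was Btc in Mist1- libraries at 5.41 ± 0.19 FPKM. Egf and Epgn stayed at or under 0.18 FPKM in every group. Ereg spanned the gap between these ranges, with 0.01 ± 0.02 FPKM in knockout and 9.76 ± 1.95 FPKM in wild-type organoids at passage 15. Hbegf and Erbb3 were the highest ligand and receptor at passages 5 and 10, with 43.5 ± 1.33 and 44.9 ± 0.32 FPKM in passage 5 knockout organoids, and 47.3 ± 1.25 and 39.1 ± 0.95 FPKM in passage 5 wild-type organoids. At passage 15, Hbegf stayed the highest ligand in the knockout at 30.5 ± 0.57 FPKM, against 39.2 ± 4.52 FPKM in the wild type, where Areg was above it.

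**Figure D1:**
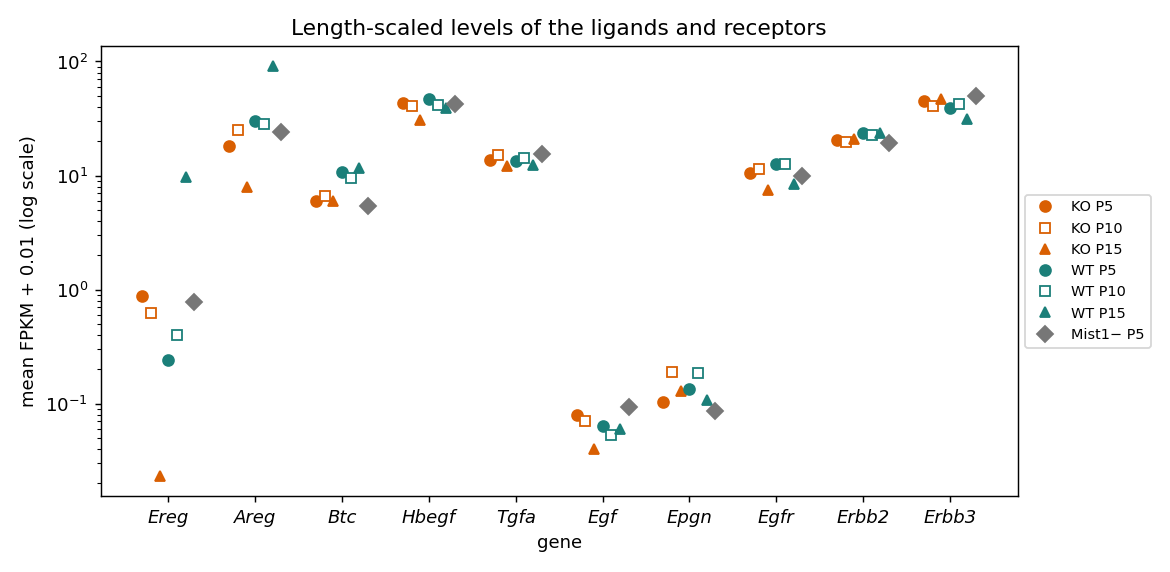
Mean FPKM of each of the 10 genes (columns) in each group (points, 3 libraries each), on a log axis with 0.01 added to show values near 0. Ereg spans the widest range, with 0.01 FPKM in knockout and 9.76 FPKM in wild-type organoids at passage 15, and Egf and Epgn lie at or under 0.18 FPKM in every group.

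Ereg encodes epiregulin, a ligand of EGFR and ERBB4. In knockout organoids Ereg had 3.98, 3.04 and 3.50 CPM at passage 5, 2.88, 2.49 and 2.14 at passage 10, and 0.18, 0 and 0 at passage 15. In wild-type organoids it had 1.02, 0.85 and 1.10 CPM at passage 5, 1.68, 1.82 and 1.48 at passage 10, and 31.6, 44.9 and 41.5 at passage 15. Every knockout library was thus above every wild-type library at passages 5 and 10, and below every one at passage 15. The Mist1- libraries had 3.25, 2.77 and 3.49 CPM, between the wild-type passage 15 level and all other wild-type levels and overlapping the passage 5 and passage 10 knockout libraries.

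At passage 5, Ereg was 3.53-fold higher in the knockout than in the wild type (log2 fold change 1.82 ± 0.27, adjusted p = 3.14e-09, edgeR quasi-likelihood test with Benjamini-Hochberg adjustment). At passage 10 it was 1.51-fold higher (0.59 ± 0.26, adjusted p = 0.0455), and this call was lost with DESeq2 (adjusted p = 0.106), without the low-count filter, in the fit over all 21 libraries, with the replicate number as a block (adjusted p = 0.0505) and without any 1 of the libraries except knockout library 3. At passage 15 the 3 knockout libraries held 3 Ereg counts in all, and the wild-type libraries 440, 762 and 675. That is a ratio of 679 in favour of the wild type, with a 95% counting interval of 232 to 3296, and the adjusted p was 2.35e-05. The change of the knockout effect between passages 5 and 15 had an adjusted p of 1.00e-08, and that between passages 5 and 10, -1.23 ± 0.38, had an adjusted p of 0.0114, or 0.0543 in the fit over all 21 libraries. Against Mist1- organoids, Mist1+ organoids had 3.19-fold less Ereg at passage 5 (-1.67 ± 0.27, adjusted p = 1.01e-07).

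Within the wild type, Ereg was 39.6-fold higher at passage 15 than at passage 5 (5.31 ± 0.21, adjusted p = 1.06e-05), the 12th highest rise among 13710 genes tested. At passage 10 the difference from passage 5 was 0.74 ± 0.34 (adjusted p = 0.112). Within the knockout, the passage 15 libraries held 3 Ereg counts and the passage 5 libraries 188, a ratio of 59.7 in favour of passage 5 (95% counting interval 20.1 to 292, adjusted p = 1.74e-18). Passage 10 differed from passage 5 there by -0.49 ± 0.21 (adjusted p = 0.0856). The passage 15 calls held without any 1 library, with adjusted p of at most 0.000627 for knockout against wild type and 0.000301 for the wild type over passages. Gm19610, an antisense gene, overlaps the start of Ereg. It had 10, 22 and 13 counts in wild-type passage 15 libraries and at most 3 in any other library, and the strand setting of the counting is not given in the sources used here, so reads of this overlap cannot be assigned with certainty.

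Areg encodes amphiregulin, a ligand that binds EGFR alone. In knockout organoids Areg had 21.1, 22.2 and 21.7 CPM at passage 5, 28.8, 30.1 and 30.2 at passage 10, and 10.1, 8.86 and 9.65 at passage 15. Wild-type libraries held 35.2, 38.2 and 40.8 CPM at passage 5, then 34.5, 37.0 and 34.6 at passage 10, and 121, 96.4 and 107 at passage 15. The knockout libraries were below the wild-type libraries at every passage, without overlap, and the gap was widest at passage 15.

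Areg was 1.76-fold lower in the knockout at passage 5 (-0.81 ± 0.07, adjusted p = 9.23e-21), 1.19-fold lower at passage 10 (-0.25 ± 0.07, adjusted p = 0.000812) and 11.3-fold lower at passage 15 (-3.50 ± 0.13, adjusted p = 1.05e-05). The knockout effect changed by 0.57 ± 0.10 between passages 5 and 10 (adjusted p = 3.68e-07) and by -2.69 ± 0.13 between passages 5 and 15 (adjusted p = 2.47e-08). Both genotypes contributed to the passage 15 gap. In the knockout, Areg was 2.27-fold lower at passage 15 than at passage 5 (-1.18 ± 0.09, adjusted p = 3.97e-20), after a level 1.37-fold higher at passage 10 than at passage 5. Wild-type Areg was 2.84-fold higher at passage 15 than at passage 5 (1.50 ± 0.12, adjusted p = 0.000173), with no call at passage 10 (-0.11 ± 0.06, adjusted p = 0.244). The Mist1- libraries had 28.8, 28.0 and 30.6 CPM, and Mist1+ organoids were 1.31-fold higher (0.39 ± 0.07, adjusted p = 2.63e-07).

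Cell type markers also differed between these groups, but not all in the direction of Ereg or Areg. Of the 5 intestinal markers, Cdx2, an intestinal transcription factor, had 0, 0.06 and 0.06 CPM in knockout and 37.7, 27.6 and 30.6 CPM in wild-type libraries at passage 15. Cdh17, an intestinal cadherin, had 0.06 CPM in each knockout library and 27.1, 36.5 and 29.1 CPM in the wild-type libraries. Both thus separated the passage 15 groups as Ereg did, and neither exceeded 1.58 CPM in any library of the other 5 groups. At passage 15 the list's Muc2 was also lower in the knockout (-1.96, adjusted p = 0.0398, a call lost without wild-type library 3 or any 1 knockout library), Vil1 was higher (0.69, adjusted p = 0.00116), Cdx1 was not tested, and the list summed to 323 to 325 CPM in knockout and 262 to 270.0 CPM in wild-type libraries. The 5 pit cell markers (Gkn1, Gkn2, Tff1, Muc5ac and Psca, of which none was at 0) summed to 4546 to 4630 CPM in knockout and 797 to 1417 CPM in wild-type libraries at passage 15, and to 1310 to 1337 CPM in knockout and 4588 to 4724 CPM in wild-type libraries at passage 5. At passage 10 they summed to 2187 to 2378 CPM in knockout and 6469 to 6730 CPM in wild-type libraries. Their order between the genotypes was thus opposite to that of Ereg at each passage, and to that of Areg at passage 15. The 3 neck cell markers summed to 165 to 170.0 CPM in knockout and 59.9 to 98.2 CPM in wild-type libraries at passage 15. At passage 5 they summed to 193 to 199 CPM in knockout and 301 to 305 CPM in wild-type libraries. At passage 10 the sums were 90.3 to 95.8 and 180 to 184 CPM. The sums hide opposite changes, since of 2 neck markers tested, 1 rose and 1 fell in the knockout at passages 5 and 10. Of all genes, 23.6% rose and 26.7% fell at passage 5, and 25.6% and 28.4% at passage 10. At passage 15 the 2 tested rose, with 9.64% of all genes. The 5 squamous markers summed to at most 1.94 CPM in any library, and Trp63 was at 0 in the wild-type passage 15 libraries. That list does not hold Krt4 or Ivl. These had means of 222 and 19.8 CPM in wild-type and 1.86 and 3.77 CPM in knockout libraries at passage 15. Ivl already had means of 17.1 and 14.2 CPM in wild-type and 4.71 and 7.79 CPM in knockout libraries at passages 5 and 10. Krt4 there had means of 11.0 and 4.61 CPM in wild-type and 6.14 and 6.14 CPM in knockout libraries. In bulk RNA, fewer cells of a type and less RNA per cell cannot be told apart, and the part of these markers in the ligand differences was not tested.

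Btc encodes betacellulin, a ligand of EGFR and ERBB4. In knockout organoids Btc had 28.0, 24.0 and 27.1 CPM at passage 5, 28.5, 29.9 and 30.3 at passage 10, and 27.3, 26.5 and 25.7 at passage 15. In wild-type organoids it had 54.9, 47.2 and 49.7 CPM at passage 5, 46.8, 40.7 and 45.8 at passage 10, and 42.8, 55.3 and 57.1 at passage 15. Each wild-type library was above each knockout library. Btc showed neither the passage 15 rise of Ereg and Areg in the wild type nor their passage 15 fall in the knockout. Btc was 1.92-fold lower in the knockout at passage 5 (-0.94 ± 0.06, adjusted p = 2.20e-28), 1.50-fold lower at passage 10 (-0.59 ± 0.06, adjusted p = 2.67e-14) and 1.96-fold lower at passage 15 (-0.97 ± 0.13, adjusted p = 0.00222). The change of the knockout effect between passages 5 and 15 was -0.03 ± 0.15 (adjusted p = 0.904). Wild-type Btc fell slightly at passage 10 (-0.18 ± 0.06, adjusted p = 0.00850), a call lost with DESeq2 (adjusted p = 0.0748), in the fit over all 21 libraries (adjusted p = 0.332), and without passage 5 library 1 or passage 10 library 2. In the knockout the passage 10 step was 0.17 ± 0.07 (adjusted p = 0.0818), and without passage 5 library 1 it was 0.21 (adjusted p = 0.04997). Over passages 5 to 15 Btc differed by 0.01 ± 0.07 in the knockout (adjusted p = 0.960) and by 0.03 ± 0.13 in the wild type (adjusted p = 0.865). Mist1- libraries had 24.3, 23.7 and 25.4 CPM, close to the knockout levels, and Mist1+ organoids were 2.07-fold higher (1.05 ± 0.06, adjusted p = 1.65e-27).

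Epgn, which encodes the low-affinity ligand epigen, had 1 to 9 counts per library, at most 0.54 CPM, and did not pass the low-count filter in any comparison. A change of Epgn was not detectable at this depth.

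**Figure D2:**
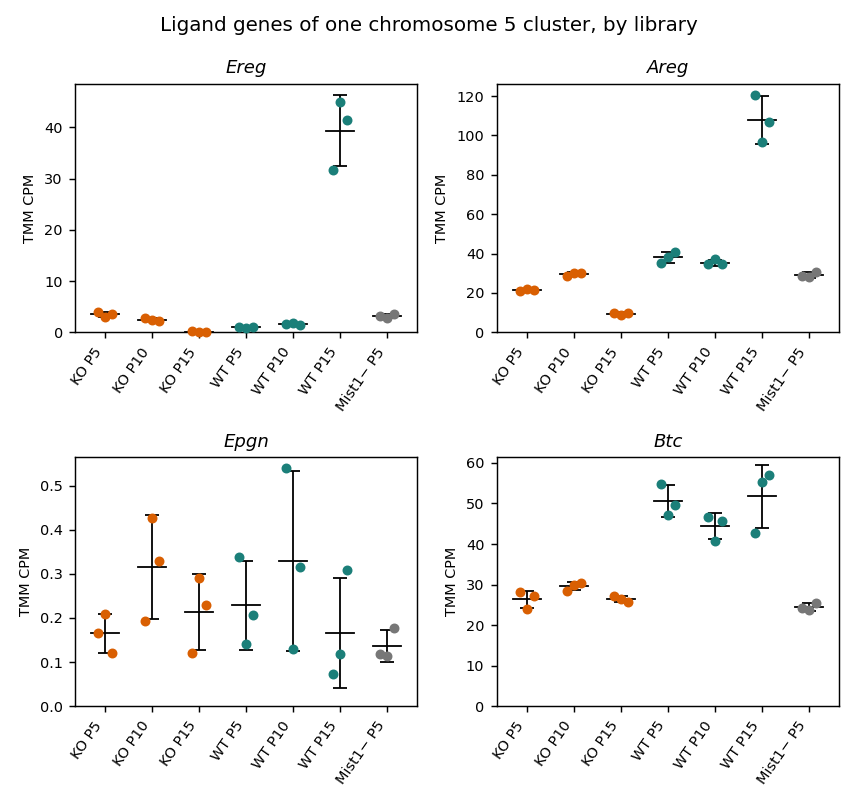
TMM-scaled CPM of the 4 neighbouring chromosome 5 ligand genes in each library (points), with the group mean and SD (lines, n = 3), each panel with its own scale from 0. At passage 15, Ereg and Areg lie at 0 to 0.18 and 8.86 to 10.1 CPM in the knockout and at 31.6 to 44.9 and 96.4 to 121 CPM in the wild type, whereas Btc is lower in the knockout at all 3 passages.

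Hbegf (ENSMUSG00000024486, chromosome 18, 36504927 to 36515805, minus strand), which encodes the heparin-binding EGF-like growth factor, was the ligand with the most counts. It had 211, 208 and 200 CPM at passage 5, 188, 186 and 203 at passage 10, and 146, 147 and 142 at passage 15 in the knockout. In the wild type it had 245, 231 and 240 CPM at passage 5, 210, 200 and 206 at passage 10, and 167, 198 and 192 at passage 15. Both genotypes were thus lowest at passage 15, and the knockout was lower at each passage, with an overlap of the libraries at passage 10. Within the knockout Hbegf was 1.42-fold lower at passage 15 than at passage 5 (-0.51 ± 0.03, adjusted p = 9.53e-29). Within the wild type the fall was -0.36 ± 0.10 at passage 15 (adjusted p = 0.0322) and -0.21 ± 0.03 at passage 10 (adjusted p = 3.49e-12). Knockout organoids were lower than wild-type organoids by 0.21 ± 0.03 at passage 5 (log2 fold change -0.21, adjusted p = 3.22e-11), and the differences were -0.10 ± 0.03 at passage 10 (adjusted p = 0.00710) and -0.35 ± 0.10 at passage 15 (adjusted p = 0.0408). The passage 10 call was lost in the fit over all 21 libraries (adjusted p = 0.197) and without wild-type library 1 or knockout library 2. The passage 15 call against the wild type was lost without the low-count filter (adjusted p = 0.0830), with the replicate number as a block (adjusted p = 0.0861), and without wild-type library 3 or any 1 knockout library. The wild-type passage 15 fall was lost in the same fits with no filter and with the block (adjusted p = 0.0648 and 0.0705), and without passage 15 library 3 or any 1 passage 5 library. In Mist1- organoids Hbegf had 204, 206 and 201 CPM, and Mist1+ organoids were 1.17-fold higher (0.23 ± 0.03, adjusted p = 9.21e-13).

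Tgfa, which encodes TGF-alpha, moved little. It had 85.3 to 89.6 CPM at passage 5, 95.3 to 96.4 at passage 10 and 76.6 to 79.2 at passage 15 in the knockout, and 89.7 to 89.9, 93.9 to 95.4 and 61.2 to 91.1 CPM in the wild type. None of the 3 knockout against wild type comparisons called it, with differences of -0.04 ± 0.04, 0.02 ± 0.04 and -0.02 ± 0.15. Within the knockout it rose by 0.14 ± 0.04 at passage 10 (adjusted p = 0.00710) and fell by 0.16 at passage 15 (-0.16 ± 0.04, adjusted p = 0.000396), each against passage 5. Both calls were lost in the fit over all 21 libraries (adjusted p = 0.463 and 0.266), and the rise also without passage 5 library 2 (adjusted p = 0.0588). Mist1+ organoids had 1.12-fold less Tgfa than Mist1- organoids (-0.17 ± 0.04, adjusted p = 0.000133), which had 98.8, 101 and 102 CPM, and this call too was lost in that fit (adjusted p = 0.148).

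Egf, the founding ligand of the family, had 2 to 24 counts per library, at most 1.42 CPM, and the libraries of all groups overlapped. It passed the filter in all comparisons except knockout against wild type at passage 15. Its only call was a fall of 2.33-fold in the knockout between passages 5 and 15 (-1.22 ± 0.49, adjusted p = 0.0429), with 0.30, 0.58 and 0.11 CPM at passage 15, against 0.66, 0.58 and 1.15 CPM at passage 5. That call was lost with DESeq2, without the filter, in the fit over all 21 libraries and with the block (adjusted p = 0.0554), and without knockout library 1 or 3 of either passage.

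Egfr, the receptor shared by all 7 ligands, had 113, 120 and 115 CPM at passage 5, 119, 134 and 127 at passage 10, and 87.3, 87.3 and 75.8 at passage 15 in the knockout. In the wild type it had 146, 152 and 149 CPM at passage 5, 153, 148 and 147 at passage 10, and 62.7, 126 and 91.6 at passage 15. The knockout was below the wild type at passages 5 and 10 without overlap, while at passage 15 the wild-type libraries spread to both sides of the knockout. The differences were -0.36 ± 0.03 at passage 5 (adjusted p = 1.08e-17), -0.24 ± 0.04 at passage 10 (adjusted p = 1.73e-08) and -0.16 ± 0.23 at passage 15 (adjusted p = 0.617). In the fit over all 21 libraries the passage 5 and 10 calls were lost (adjusted p = 0.0561 and 0.201), and without wild-type passage 15 library 1 the passage 15 difference was -0.38 (adjusted p = 0.0455). Egfr fell in the knockout between passages 5 and 15 (-0.48 ± 0.04, adjusted p = 2.23e-17). In the wild type the same step was -0.67 ± 0.23 (adjusted p = 0.0643), which became a call in the fit over all 21 libraries (adjusted p = 0.000544), with DESeq2 (adjusted p = 0.0197), without the filter (adjusted p = 0.0411), with the block (adjusted p = 0.0367), and without passage 15 library 1 (-0.45) or library 2 (-0.95). Mist1+ organoids had 1.33-fold more Egfr than Mist1- organoids (0.41 ± 0.03, adjusted p = 5.87e-20), which had 113, 113 and 110 CPM.

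Erbb2, the ligand-less partner receptor, varied least among the receptors, with 96.9 to 115 CPM in knockout libraries, 116 to 129 CPM in wild-type libraries and 98.7 to 101 CPM in Mist1- libraries. Every knockout library was below every wild-type library. The difference was -0.28 ± 0.04 at passage 5 (adjusted p = 3.88e-10), -0.26 ± 0.04 at passage 10 (adjusted p = 5.15e-09) and -0.16 ± 0.08 at passage 15 (adjusted p = 0.208), where the fit over all 21 libraries gave an adjusted p of 0.0190. No step between passages was called for Erbb2 in either genotype, except for passage 15 against 5 in the knockout without passage 5 library 1 (0.11, adjusted p = 0.0288). Mist1+ organoids had 1.28-fold more than Mist1- organoids (0.35 ± 0.04, adjusted p = 1.91e-15).

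Erbb3, which pairs with ERBB2 as a neuregulin receptor, was the most abundant receptor transcript. It had 265, 263 and 267 CPM at passage 5, 230.0, 250 and 241 at passage 10, and 269, 280 and 276 at passage 15 in the knockout. In the wild type it had 248, 249 and 239 CPM at passage 5, 264, 260 and 261 at passage 10, and 154, 223 and 179 at passage 15. The order of the genotypes changed, with the knockout higher at passages 5 and 15 and lower at passage 10. The differences were 0.11 ± 0.03 (adjusted p = 0.000101), -0.12 ± 0.03 (adjusted p = 0.000143) and 0.57 ± 0.14 (adjusted p = 0.0286) at passages 5, 10 and 15. The passage 15 call was lost without wild-type library 3 or any 1 knockout library (adjusted p up to 0.121), and the first 2 calls in the fit over all 21 libraries. Against passage 5, wild-type Erbb3 moved by 0.09 at passage 10 (adjusted p = 0.00317) and by -0.41 at passage 15 (adjusted p = 0.0678). The knockout steps were -0.14 (adjusted p = 8.08e-05) and 0.05 (adjusted p = 0.0620). That fit lost both passage 10 calls, and the wild-type one was lost without passage 5 library 3. The wild-type passage 15 step was called in that fit, with DESeq2 and without passage 15 library 1 or 2. The knockout one was called without passage 15 library 1. Mist1- libraries had 305, 298 and 293 CPM, the highest of any group, and Mist1+ organoids were 1.22-fold lower (-0.28 ± 0.02, adjusted p = 1.25e-18).

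**Figure D3:**
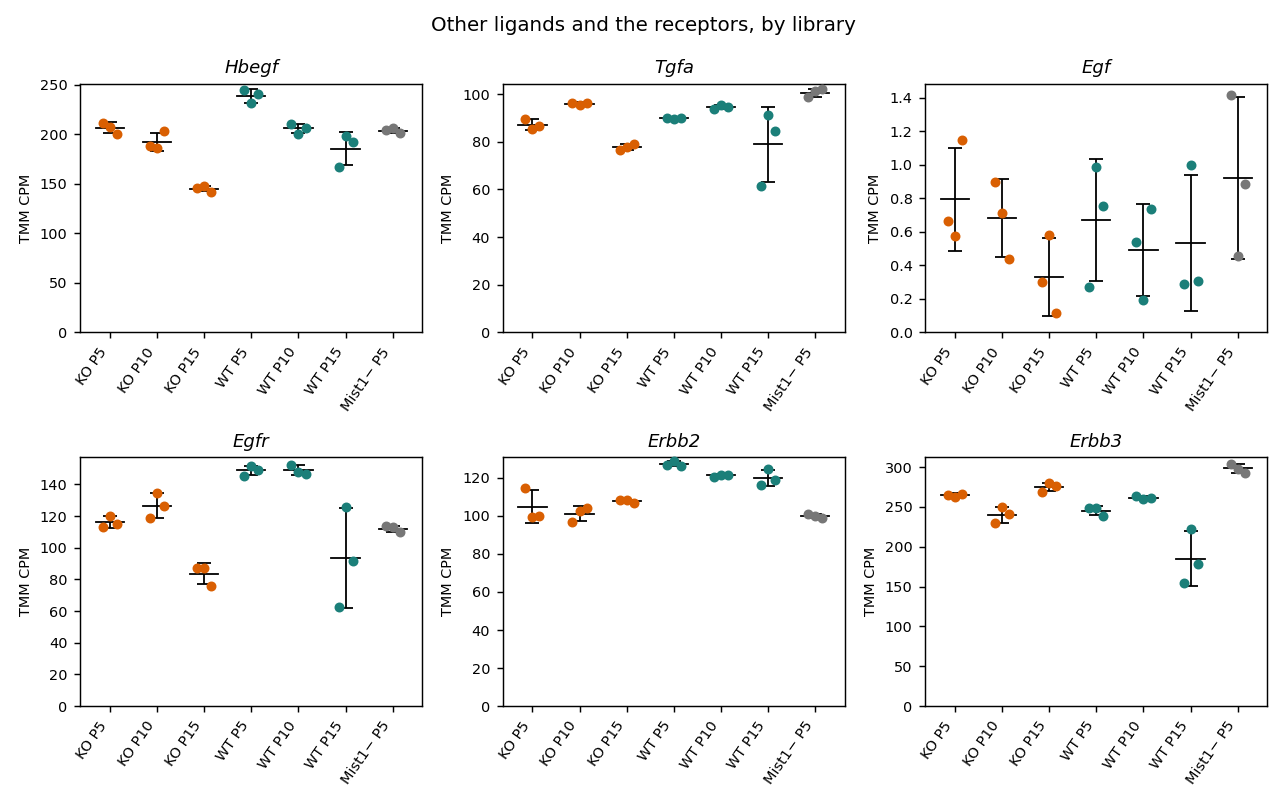
TMM-scaled CPM of Hbegf, Tgfa, Egf and the receptors Egfr, Erbb2 and Erbb3 in each library (points), with the group mean and SD (lines, n = 3), each panel with its own scale from 0. The wild-type passage 15 libraries spread widely for Egfr (62.7 to 126 CPM) and Erbb3 (154 to 223 CPM), and Erbb2 is lower in every knockout library than in every wild-type library.

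Counted over the set, 2 of 9 tested members rose and 5 fell in the knockout at passage 5, when 50.3% of all genes tested were called, 23.6% higher and 26.7% lower. At passage 10, 1 of 9 rose and 6 fell, with 54% of all genes called, 25.6% higher and 28.4% lower. At passage 15, 1 of 8 rose and 4 fell, with 19.7% of all genes called, 9.64% higher and 10.1% lower. The median log2 fold changes of the tested members were -0.21, -0.12 and -0.26 at passages 5, 10 and 15, against -0.01 over all genes at each. Between Mist1+ and Mist1- organoids 5 of 9 rose and 3 fell, with 55.4% of all genes called, 28.2% higher and 27.2% lower, and the members' median was 0.23.

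Over passages in the wild type, 1 of 9 rose and 2 fell at passage 10 against 5, with 20.4% of all genes called, 10.1% higher and 10.4% lower. At passage 15 against 5, 2 of 9 rose and 1 fell, with 26.2% called, 11.9% higher and 14.3% lower. In the knockout 3 of 9 rose and 2 fell at passage 10 against 5, with 22.1% called, 11.7% higher and 10.4% lower. At passage 15 against 5 none of 9 rose and 6 fell, with 32.9% called, 16.1% higher and 16.8% lower. The knockout effect differed between passages 5 and 10 for 5 of 9 members, becoming higher for 3 and lower for 2, with 20.1% of all genes called, 10.5% higher and 9.58% lower. Between passages 5 and 15 it differed for 3 of 9, higher for Erbb3 and lower for Ereg and Areg, with 28.9% called, 15.2% higher and 13.7% lower.

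**Figure D4:**
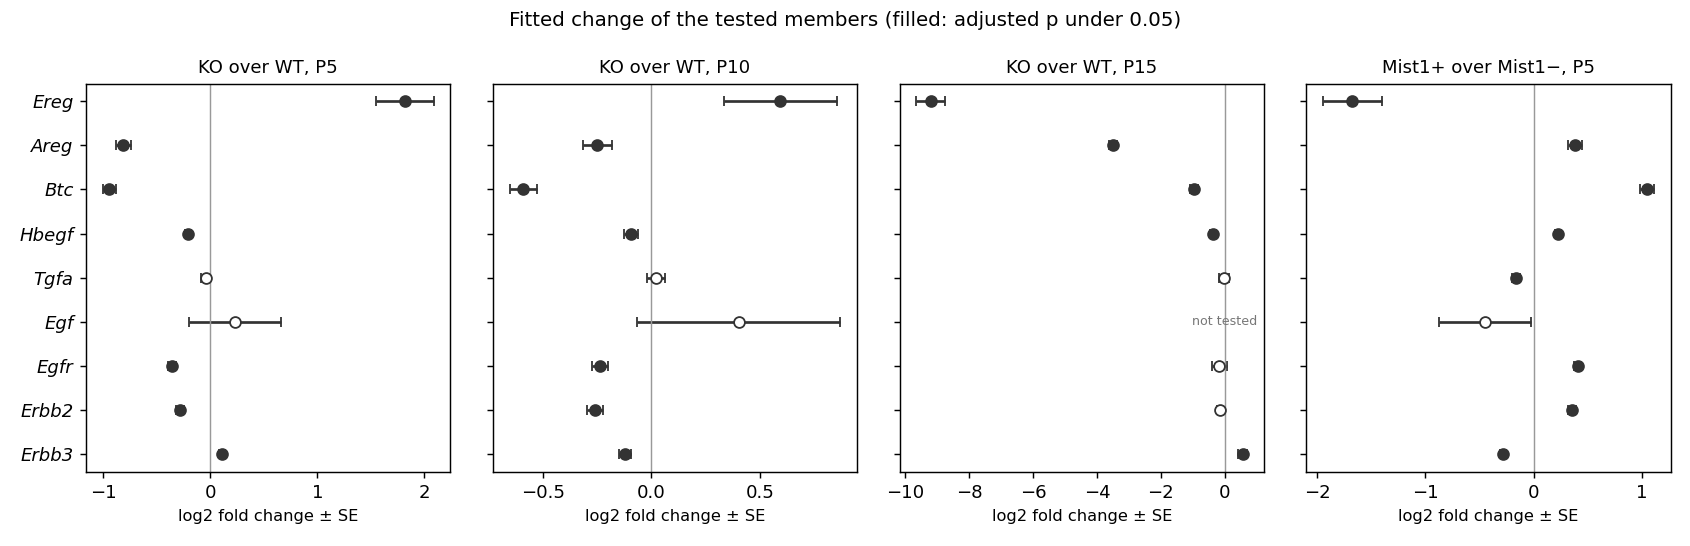
Log2 fold change ± SE (edgeR) of the tested members in 4 comparisons, each panel with its own axis, filled where the adjusted p is under 0.05. Ereg lies right of 0 in knockout over wild type at passages 5 and 10 and far left of it at passage 15, where the fitted value rests on 3 knockout counts, while Areg and Btc lie left of 0 at all 3 passages and right of it in Mist1+ over Mist1-.

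Other parts of the pathway were described from lists of named genes. ERBB4, the remaining receptor of the family, was nearly silent, with 2 counts of Erbb4 in 1 knockout passage 15 library and 0 in all others. Nrg1, which encodes the ERBB3 and ERBB4 ligand neuregulin 1, had 7.86, 7.22 and 7.96 CPM in passage 5 knockout libraries, against 2.58, 2.89 and 4.04 CPM in wild-type ones. It rose in the knockout at all 3 passages, by 1.27 ± 0.17 (adjusted p = 3.18e-11), 1.50 ± 0.15 (adjusted p = 8.72e-16) and 0.72 ± 0.18 (adjusted p = 0.0312), of which the passage 15 call was lost without wild-type library 3 or any 1 knockout library, and it was lower in Mist1+ than in Mist1- organoids (-2.10 ± 0.14, adjusted p = 3.53e-24). Its levels thus ran opposite to those of Areg and Btc in these 4 comparisons. The table holds 2 rows named Nrg1, and the one with more counts was used.

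Among 8 sheddases and their cofactors, 7 passed the filter. Adam8, which encodes a protease not counted among the main ligand sheddases, had 4.49, 4.52 and 3.44 CPM in knockout and 23.5, 24.6 and 24.5 CPM in wild-type libraries at passage 15 (-2.54 ± 0.14, adjusted p = 3.11e-05). Rhbdf1, a cofactor of ADAM17, was the other one called there and rose by 0.45 ± 0.09 (adjusted p = 0.0150), a call lost without any 1 knockout library. The 1 that rose and the 1 that fell stand beside 9.64% and 10.1% of all genes, and without wild-type library 2 they were 4 and 2, beside 22.5% and 23.4%. At passage 5, 3 rose and 3 fell (23.6% and 26.7% of all genes), and the smallest adjusted p belonged to Adam9 (-0.64 ± 0.02, adjusted p = 4.76e-55) and Adam10 (-0.30 ± 0.02, adjusted p = 3.81e-22), and at passage 10, 4 rose and 3 fell (25.6% and 28.4%). Adam10 encodes the protease known to release EGF and betacellulin.

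Of 14 genes that ERK signalling is known to induce, 8 fell and none rose in the knockout against the wild type at passage 15, with a median of -0.40 over the list and -0.01 over all genes, of which 10.1% fell and 9.64% rose. The count that fell depended on single libraries. It was 12 without wild-type library 1 and 11 without library 2, when 15.3% and 23.4% of all genes fell, and 4 or 5 without wild-type library 3 or any 1 knockout library, when 4.39% to 4.9% fell. The 2 with the smallest adjusted p were Hmga2 (-0.77 ± 0.11, adjusted p = 0.00269) and Etv4 (-0.86 ± 0.12, adjusted p = 0.00305). Both calls held without any 1 library. Etv4 had 19.7, 20.8 and 21.8 CPM in knockout and 41.7, 32.3 and 38.9 CPM in wild-type libraries. At passage 5, 2 rose and 8 fell (23.6% and 26.7% of all genes), led by Ccnd1 (-0.53 ± 0.02, adjusted p = 7.79e-57), which encodes cyclin D1, and Plaur (-0.65 ± 0.02, adjusted p = 6.33e-50). At passage 10, 4 rose and 8 fell (25.6% and 28.4%).

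Over passages 5 to 15, 2 of the 14 rose and 11 fell in the knockout, with a median of -0.33, while 16.1% of all genes rose and 16.8% fell. The smallest adjusted p belonged to Egr1 (-0.59 ± 0.02, adjusted p = 4.64e-45) and Epha2 (-0.65 ± 0.03, adjusted p = 6.48e-39). In the wild type 2 rose and 3 fell (11.9% and 14.3% of all genes), with a median of -0.11. Without library 1, or without library 2, of passage 15 the counts were 4 and 4, when 16.7% to 22.1% of all genes rose and 19.5% to 25.3% fell. Without any 1 of the other 4 libraries they were 1 or 2 and 2, when 3.95% to 4.53% of all genes rose and 7.17% to 7.48% fell. Hmga2 was among those that rose in the wild type (1.07 ± 0.12, adjusted p = 0.000921). Myc was the member with the smallest adjusted p for a change of the knockout effect between passages 5 and 15 (-0.66 ± 0.10, adjusted p = 0.000308), 1 of 6 for which the effect became lower, against 1, Plaur, for which it became higher (13.7% and 15.2% of all genes).

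**Figure D5:**
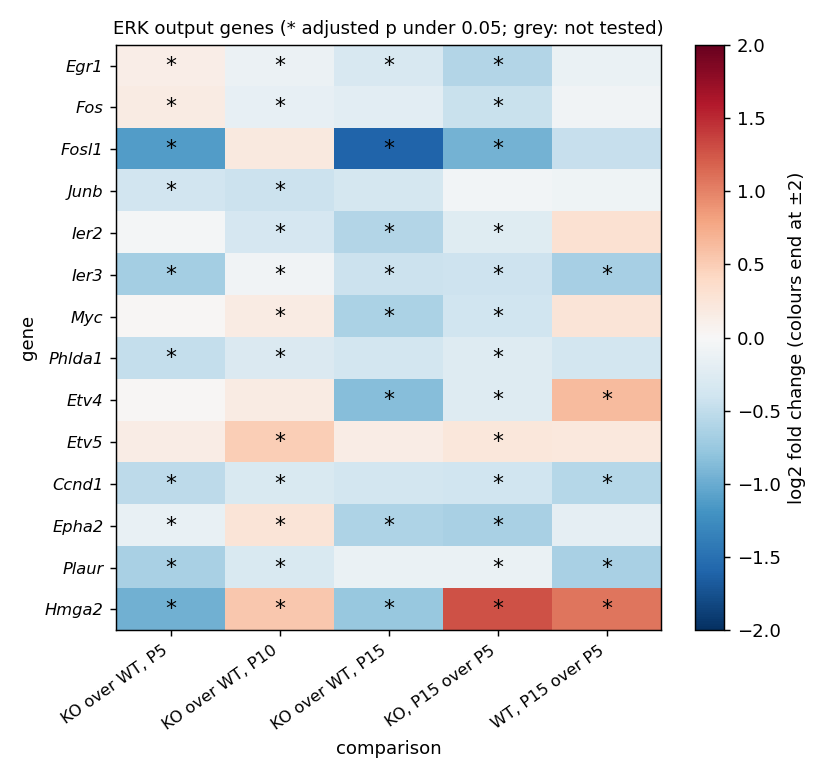
Log2 fold change of the 14 ERK output genes (rows) in 5 comparisons (columns), with a star where the adjusted p is under 0.05. In the knockout against the wild type at passage 15, 8 of 14 are starred and lower, and within the knockout 11 of 14 are lower at passage 15 than at passage 5.

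Of 15 feedback inhibitors, which ERK or the receptors induce and which dampen the signal, 1 rose and 3 fell in the knockout against the wild type at passage 15, with 9.64% and 10.1% of all genes. The ones with the smallest adjusted p were Dusp5, a phosphatase of ERK (-0.54 ± 0.11, adjusted p = 0.0144), and Errfi1, an inhibitor that binds the EGF receptor (-0.43 ± 0.09, adjusted p = 0.0165). Without wild-type library 1, 2 rose and 6 fell (14.7% and 15.3% of all genes), without library 2, 5 rose and 4 fell (22.5% and 23.4%), and without wild-type library 3 or any 1 knockout library all 4 calls of the list were lost. Dusp5 had 46.7, 48.0 and 46.5 CPM in knockout and 76.8, 59.9 and 68.8 CPM in wild-type libraries, but at passage 5 it was higher in the knockout (0.61 ± 0.04, adjusted p = 3.19e-26). Dusp6, another ERK phosphatase, was lower in the knockout at passage 5 (-0.66 ± 0.03, adjusted p = 6.22e-36). Of the 15, 5 rose and 2 fell in the knockout at passage 5 (23.6% and 26.7% of all genes). At passage 10, 8 rose and 3 fell (25.6% and 28.4%). The list medians were 0.12 and 0.16, against -0.01 over all genes at each. Within the knockout 3 of 15 rose and 8 fell between passages 5 and 15 (16.1% and 16.8% of all genes). Within the wild type 1 rose and 3 fell (11.9% and 14.3%). Leaving out 1 library gave 0 to 2 and 1 to 6, when 3.95% to 22.1% of all genes rose and 7.17% to 25.3% fell. Of 27 adaptors and kinases, 1 rose and none fell in the knockout against the wild type at passage 15, namely Pik3ca (0.46 ± 0.12, adjusted p = 0.0391), with 9.64% and 10.1% of all genes. That call was lost without wild-type library 3 or any 1 knockout library. Without wild-type library 1, 5 rose and 1 fell (14.7% and 15.3% of all genes), and without library 2, 12 rose and 2 fell (22.5% and 23.4%).

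Finally, the genes whose levels ran closest to each member over the 21 libraries were found by Pearson's r of log2(CPM + 1) among 11144 protein-coding genes, as a description, since the libraries share 7 groups. For Ereg they were Rab31 (r = 0.96, n = 21), a small GTPase gene, and Krt4 (r = 0.93, n = 21), a keratin gene. Krt4 had 1.86 ± 0.77 CPM in knockout and 222 ± 42.1 CPM in wild-type organoids at passage 15 (SD, n = 3), and at most 14.9 CPM on average in every other group. For Areg they were Rap2b and Gsr (r = 0.95 each, n = 21), the second encoding glutathione reductase, which had 332 ± 1.05 CPM in knockout and 471 ± 21.9 CPM in wild-type organoids at passage 15. For Btc they were Baiap2l1 (r = 0.97, n = 21) and Ivl (r = 0.95, n = 21). Hbegf ran closest to Car12 and Actn1, Tgfa to Il1r1 and Tsc22d2, Egfr to Abcc4 and Sema3c, Erbb2 to Tspan9 and Tmprss2, and Erbb3 to Slc30a7 and Copa, with r of 0.93 to 0.98. Egf, at its low counts, reached an r of 0.72 with Rhbdf2 and 0.69 with Dclre1c.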

How the data were processed

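RNA-seq of gastric organoids was analysed in 21 libraries, 7 groups of 3 taken from the labels. Another 6 of 27 labelled libraries, from sorted cells of mice on different diets, were not analysed here. The authors deposited 1 table with raw read counts and FPKM for 56691 genes. The submitters' processing notes name cutadapt 1.9.1, HISAT2 2.2.1, HTSeq 0.6.1 and the build GRCm38.p5. All deposited FPKM (100%) could be rebuilt within 0.006 from counts, exonic lengths and totals. Only 1472 of 52073 gene identifiers shared with GENCODE M21 had the table's coordinates there, so coordinates given here are those of GENCODE M21 (GRCm38).

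Counts were tested with edgeR 4.0.16 (limma 3.58.1, R 4.3.3), using quasi-likelihood F-tests over the compared groups only, because wild-type passage 15 libraries vary more than the others. TMM factors came from all 21 libraries, and filterByExpr kept genes by a count of 10 and a total of 15. Benjamini-Hochberg adjustment ran over all genes tested. A gene "rose" or "fell" where its adjusted p was under 0.05. Each SE is the log2 fold change over the root of its F. Intervals are 95% and cover counting error only. In all, 10 comparisons were made. The code was tested on simulated data. Alternatives were median-ratio scaling, no filter, DESeq2 1.42.0, all 21 libraries in 1 fit, the replicate number as a block, each library left out, and CPM per kilobase in place of FPKM. Counts and calls in the pathway lists without each library were added after seeing the data.

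The members and lists were chosen with earlier results of these data known. All 10 members are named. Of each pathway list, up to 2 called genes with the smallest adjusted p are named per comparison and followed across groups. For likeness, the 2 genes with the highest r and a mean CPM of at least 1 are named. Cdx2, Cdh17, Muc2, Vil1 and Cdx1 were named after their values were seen.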

Additional observations from a re-analysis of the deposited data

Results flagged for a closer look

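For 8 values the effect of the Gpx4 knockout differed between passages by the test of that difference (edgeR interaction term, log2 scale, adjusted p under 0.05). Between passages 5 and 10 the knockout effect changed by -1.23 for Ereg (adjusted p = 0.0114), 0.57 for Areg (adjusted p = 3.68e-07), 0.35 for Btc (adjusted p = 0.00122), 0.11 for Hbegf (adjusted p = 0.0353) and -0.23 for Erbb3 (adjusted p = 1.14e-07). In the fit over all 21 libraries the Ereg (adjusted p = 0.0543), Btc (adjusted p = 0.141) and Erbb3 (adjusted p = 0.321) values were lost. The Hbegf value was lost without the low-count filter, with DESeq2, in the fit over all 21 libraries and without any 1 of 7 of the 12 libraries. Between passages 5 and 15 the effect changed by -11.03 for Ereg (adjusted p = 1.00e-08), -2.69 for Areg (adjusted p = 2.47e-08) and 0.46 for Erbb3 (adjusted p = 0.0325). The Ereg value is a fitted one that depends on the prior count, since the knockout passage 15 libraries held 3 counts. The Erbb3 value was lost without any 1 of 10 of the 12 libraries. Every group had 3 libraries, too few for a test of single libraries that stand apart.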

How the results depend on the processing

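Of 89 tests of members, no direction of a called value reversed under any alternative. Median-ratio scaling changed the call of none of the 89. Without the low-count filter 5 calls were lost and 1 was gained, with DESeq2 6 and 2, in the fit over all 21 libraries 19 and 3, and over all fits that left out 1 library 50 and 12. The Ereg, Areg and Btc calls at passage 15 between knockout and wild type, and the Ereg and Areg calls over wild-type passages 5 to 15, held in every alternative run. With TMM-scaled CPM per kilobase in place of FPKM, 13 of 70 group levels moved by 1 SD or more. The ratio of the new level to FPKM was 0.944 to 1.115, and the order of the 10 members was the same in 7 of 7 groups.

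In the fit over all 21 libraries, where every comparison shares the spread of the wild-type passage 15 libraries, 4464 genes were called at passage 5 between knockout and wild type (6971 reported) and 7233 at passage 15 (2733). Over passages it called 746 genes (2811) at passage 10 and 7584 (3590) at passage 15 in the wild type, and 1161 (3081) and 1938 (4601) in the knockout, with 914 (2925) for the change of the knockout effect at passage 10. Its members called numbered 3 (7 reported) at passage 10 between knockout and wild type, 1 (3) and 5 (3) at passages 10 and 15 in the wild type, 1 (5) at passage 10 in the knockout and 1 (5) for the effect's change. DESeq2 called 5 members (3) at passage 15 in the wild type and 3 (5) at passage 10 in the knockout. Over the 5 alternatives that kept every library, genes called there ranged from 2978 to 7584 (3590 reported) and from 1161 to 3095 (3081). Between knockout and wild type at passage 10 these alternatives called 5105 to 7539 genes (7522 reported).

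Leaving out 1 library gave 1299 to 6532 genes and 3 to 6 members at passage 15 between knockout and wild type, 1574 to 6655 genes and 2 to 5 members over wild-type passages 5 to 15, 2522 to 2911 genes and 3 to 5 members at passage 10 in the knockout, and 3299 to 7122 genes for the effect's change at passage 15. In the fits with wild-type passage 15 libraries, the highest gene counts came without library 2 of that group. Same-numbered libraries did not deviate together (correlations of -0.03 to 0.05), so the numbers do not pair them. With the replicate number as a block, 2319 genes and 4 members were called at passage 15 between knockout and wild type (2733 and 5 reported), and 4 member calls were lost and 1 gained over all tests. Epgn and Egf, at 1 to 9 and 2 to 24 counts per library, are limited by depth.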
